A study of Caenorhabditis elegans and Caenorhabditis briggsae
Caenorhabditis elegans with 146 samples.

Results

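The SET domain genes described here are the 36 genes, among 20411 in the deposited expression table, whose public name is *set-* followed by a number or is *met-1*, *met-2*, *mes-2* or *mes-4*. They were chosen by name alone. By the RefSeq annotation (assembly WBcel235), 5 of them lie on chromosome I, 7 on II, 7 on III, 5 on IV, 4 on V and 8 on X, and *set-33* is annotated there as a pseudogene. The SET domain is a protein fold that transfers methyl groups from S-adenosylmethionine to lysines, in most of the family's studied members to lysines of histone tails.

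Each enzyme prefers a particular lysine. SET-1 adds the first methyl group to lysine 20 of histone H4 (H4K20) and SET-4 adds further ones to the same residue. SET-2, SET-16, SET-17 and SET-30 act on H3K4, MET-2, SET-25 and SET-32 on H3K9, MES-2 (the catalytic subunit of the PRC2 complex) on H3K27, and MES-4 and MET-1 on H3K36, while SET-9 and SET-26 are near-identical proteins that bind methylated H3K4. In *C. elegans* the dosage compensation complex, which contains the condensin subunit DPY-27 and the H4K20 demethylase DPY-21, binds both hermaphrodite X chromosomes, lowers their transcription and raises the monomethylated form of H4K20 on them.

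Messenger RNA-seq was analysed in 79 libraries of 23 groups as FPKM, fragments scaled to transcript length and to the mapped fragments of the library, and in 6 further L1 libraries as read counts with *C. briggsae* worms added as a spike-in. The wild type was N2, whose self-fertilising populations are hermaphrodite, and mixed sex populations were *fog-2(oz40)* (strain BS553), so that sex and strain cannot be told apart. By the paper's account the mixed sex populations held both XX and XO animals, so no group was male only. Early embryos, comma stage embryos (early embryos aged 4 h), L1 larvae fed for 6 h and L3 larvae fed for 24 h were collected from both. The mutants were homozygous *dpy-27(y56)* early embryos and L1s from the balanced strain MK4, and early embryos of that strain labelled heterozygous. *dpy-21(e428)* (CB428) gave early embryos, unsynchronised mixed embryos and L3s. *set-4(n4600)* (MT14911) gave mixed embryos, L3s and spike-in L1s. *set-1(tm1821)* larvae of strain SS1075 were either homozygous or heterozygous over a GFP balancer, hand-picked by fluorescence. N2 mixed embryos and L3s fed bacteria with a *dpy-27* RNAi or an empty vector completed the set. Groups held 3 libraries, except 2 for N2 L1, mixed sex L1 and heterozygous *dpy-27* embryos, 4 for the second N2 L3 collection, the *dpy-21* and *set-4* L3 and mixed embryo groups, both RNAi groups and the L3 vector control, and 6 for the vector control of mixed embryos. Each library pooled many animals, so fewer cells of a type and less RNA per cell cannot be told apart in any value below. The deposited FPKM carry no read numbers, so the depth behind each FPKM is unknown and no counting interval can be given for it.

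Several libraries need naming before the results. A library deposited as N2 L1 replicate 3 and as mixed sex L1 replicate 1 held the same values for 100% of genes and was left out of both groups. In mixed embryos, the library labelled *set-4(n4600)* replicate 2 held 52.6 FPKM of *set-4* while the other 3 of that label held 0.043, 0.138 and 0.0534, and the library labelled *dpy-21(e428)* replicate 3 held 0.223 FPKM of *set-4* while the other 3 of that label held 62.2, 32.7 and 44.4. Both go against their labels and neither was moved. In early embryos, the summed FPKM of 5 larval cuticle collagen genes was 30.5 to 60.6 in N2, 268 to 481 in mixed sex, 1203 to 1867 in *dpy-27(y56)*, 924 and 3977 in the heterozygotes, and 88.3 to 1707 in *dpy-21(e428)*, and that of 5 early zygotic genes was 254 to 304, 189 to 195, 122 to 160, 84.0 and 214, and 97.9 to 200. The cuticle list includes *rol-6*, and the paper states that the balancer of the *dpy-27(y56)* strain carries *rol-6(su1006)*. The part of the balancer in the heterozygote sums was not tested. The N2 L3 larvae of the first collection summed to 176 to 217 FPKM over 8 germ line genes, and those of the second to 64.5 to 87.2. *dpy-27* mRNA was 26 to 36.9 FPKM in RNAi mixed embryos against 64.9 to 135 with vector, but in L3s it was 115, 15.8, 15.7 and 19.9 against 26, 18.5, 17.1 and 18.5, and in *dpy-27(y56)* embryos it was 39.1, 40.1 and 59.7 against 56.7 to 59.9 in N2, so mRNA level does not check those labels.

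The transcript of *set-1* was the most abundant of the family in N2 and mixed sex early embryos. In N2 its FPKM was 418, 441 and 416 in early embryos, 190, 192 and 104 at the comma stage, 87.5 and 37.0 in L1s and 34.1, 28.0 and 26.8 in L3s. Each later stage lay wholly below the one before it. In mixed sex populations the same gene went from 486, 509 and 396 through 173, 252 and 196 and then 68.4 and 41.1 to 33.1, 38.2 and 40.6. The log2 change from early embryo to comma stage, on scaled FPKM + 0.1, was -1.49 (SE 0.19, adjusted p = 0.00016) in N2 and -1.18 (SE 0.15, adjusted p = 0.00016) in mixed sex, and from comma stage to L1 it was -1.38 (SE 0.44, adjusted p = 0.0457) and -1.74 (SE 0.30, adjusted p = 0.00408). The N2 fall to L1 was not called without comma replicate 1 (adjusted p = 0.116), without comma replicate 2 (0.113), without L1 replicate 2 (0.227) or with no filter on low values (0.0592). From L1 to L3 *set-1* did not pass the test in either (adjusted p = 0.197 and 0.652). All adjusted p-values on FPKM in this report come from limma with Benjamini-Hochberg adjustment over all genes tested, a gene being tested when the mean of the group means exceeded 1 FPKM and called when its adjusted p was under 0.05.

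*set-4* followed *set-1* at a lower level. Its FPKM in N2 was 93.0, 95.2 and 98.3 in early embryos, 41.5, 47.5 and 34.4 at the comma stage, 16.4 and 20.6 in L1s and 13.9, 13.7 and 11.3 in L3s. Mixed sex values were 107, 104 and 98.9, then 47.9, 51.1 and 51.1, then 17.8 and 14.8, then 12.2, 16.4 and 12.8. The fall to the comma stage was called in both strains (log2 -1.27, SE 0.13, adjusted p = 4.02e-05 in N2 and -1.05, SE 0.09, adjusted p = 1.77e-05 in mixed sex), as was the fall to L1 (-1.07, SE 0.22, adjusted p = 0.0112 and -1.41, SE 0.18, adjusted p = 0.00139). Without N2 comma replicate 2 the N2 fall to L1 had an adjusted p of 0.0548.

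**Figure D1:**
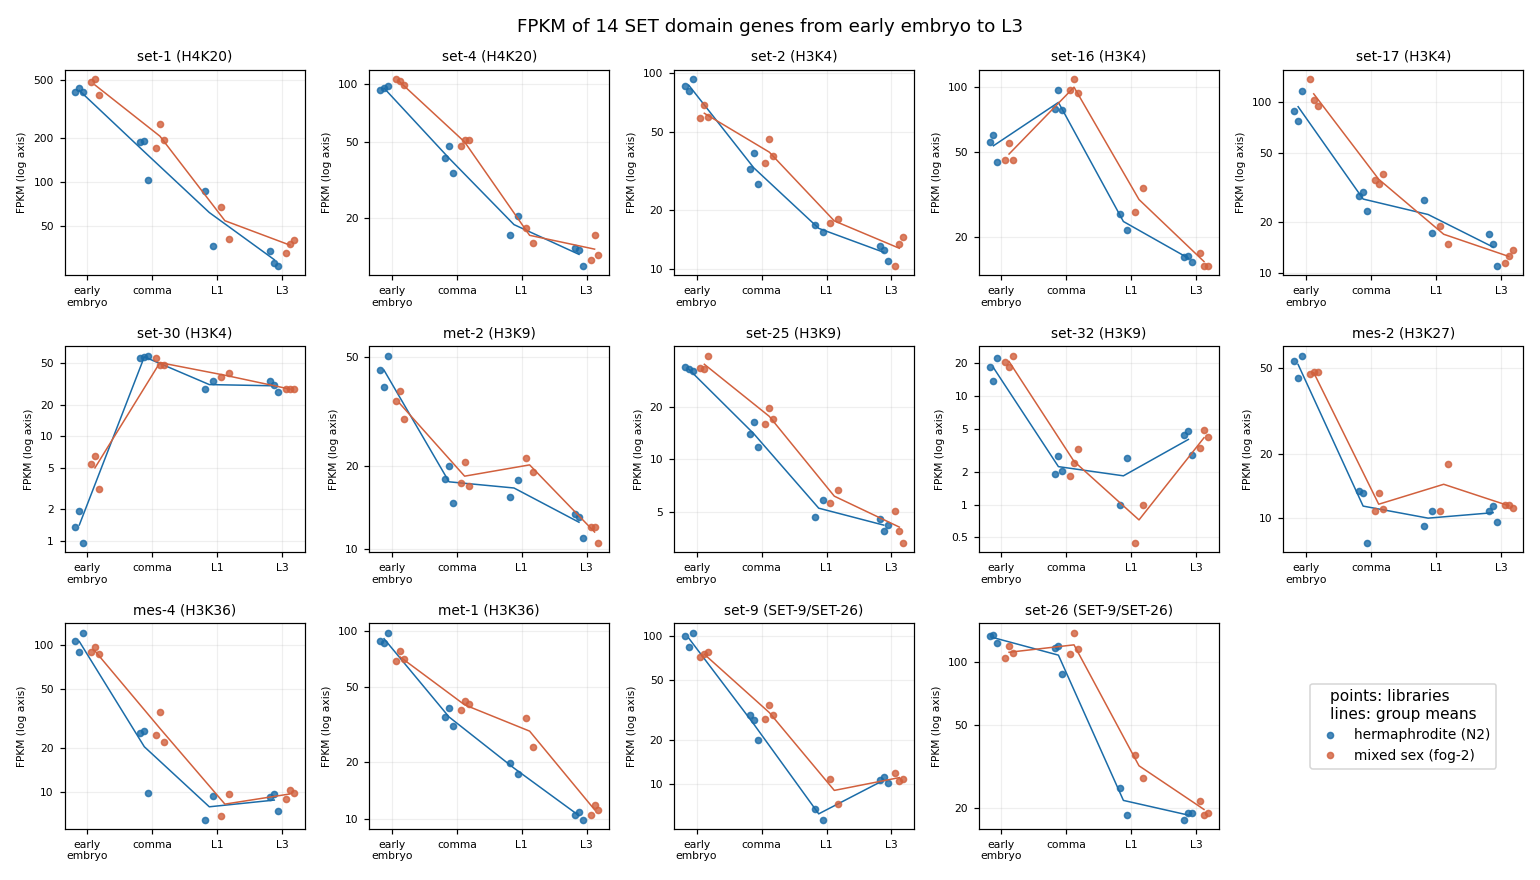
FPKM (log axis) of the 14 SET domain genes with an assigned role in hermaphrodite (N2, blue) and mixed sex (*fog-2*, orange) libraries at 4 stages; points are libraries and lines join group means. *set-1* fell from 416 to 441 in N2 early embryos to 26.8 to 34.1 in L3s, whereas *set-30* was at 0.958 to 1.95 in N2 early embryos and at 56.4 to 58.8 at the comma stage.

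Most SET domain genes had lower relative mRNA levels at the comma stage than in the early embryo. This step lies between largely undifferentiated embryos and embryos with formed tissues. FPKM are relative to the library, so a change in total mRNA does not show in them. Of 33 members tested in N2, 22 fell and 7 rose, and in mixed sex 22 of 33 fell and 8 rose. Among all genes tested the background was 39.3% lower and 45.3% higher in N2, and 38% lower and 42.8% higher in mixed sex. The median log2 change of the members was -1.32 in N2 against 0.24 over all genes tested, and -0.89 in mixed sex against 0.17. The N2 and mixed sex collections share no library for this step, and 21 members fell in both, 6 rose in both and none was called in opposite directions; over genes tested in both, 36.3% fell in both, 40.4% rose in both and 0.134% went opposite ways. Leaving out any single library left 27 to 29 calls in N2 and 28 to 31 in mixed sex.

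Summed levels of 3 marker lists fell over the same step. The FPKM summed over 10 genes of dividing cells went from 11394 to 12033 in N2 early embryos to 497 to 1401 at the comma stage, that of 8 germ line genes from 569 to 817 to 38.8 to 53.7, and that of 8 maternal RNA-binding protein genes from 3982 to 5947 to 101 to 229. In mixed sex they went from 8837 to 9812 to 1015 to 1490, from 715 to 854 to 42.3 to 53.3 and from 4386 to 4834 to 184 to 267. All 10, 8 and 8 genes of these lists were called lower in both strains, 5 of 6 genes of differentiating tissue were called higher in both, and their part in the members' changes was not tested.

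The steepest falls were of genes that, apart from *set-32*, have no role assigned above. *set-12* (X) was at 24.5, 25.6 and 24.0 FPKM in N2 early embryos and at 0.568, 0.651 and 0.181 at the comma stage, a log2 change of -5.62 (SE 0.38, adjusted p = 5.68e-06). *set-22* went from 70.8, 68.5 and 78.1 to 2.66, 1.86 and 0.794 (-5.47, SE 0.35), and *set-13* from 23.6, 26.7 and 21.8 to 1.42, 0.879 and 0.604 (-4.61, SE 0.30). *set-12* and *set-13* stayed near the floor afterwards, at most 0.727 and 0.902 FPKM in any N2 or mixed sex L1 or L3 library. *set-22* averaged 0.991 FPKM in N2 L1s and 4.43 in N2 L3s. *set-24* (-3.44, SE 0.21) and the H3K9 gene *set-32* (-3.0, SE 0.28) were the next largest falls in N2, and these 5 genes also had the largest falls in mixed sex, from *set-22* at -4.94 (SE 0.37) to *set-24* at -2.89 (SE 0.19).

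Among H3K4 enzymes the members split. *set-2*, the catalytic subunit of the COMPASS complex and orthologue of SET1, fell from 85.3, 80.8 and 92.7 FPKM to 32.4, 38.9 and 27.2 in N2 (log2 -1.45, SE 0.14), and *set-17* from 88.2, 77.3 and 115 to 28.2, 29.9 and 23.2 (-1.81, SE 0.18). *set-16*, the orthologue of the MLL enzymes, instead rose, from 55.4, 59.6 and 44.7 to 79.0, 96.6 and 78.3 (0.63, SE 0.15, adjusted p = 0.00461), and rose in mixed sex from 45.9, 54.6 and 45.6 to 96.4, 109 and 93.6 (1.02, SE 0.10). *set-30* was close to absent in N2 early embryos at 1.36, 1.95 and 0.958 FPKM and stood at 56.4, 57.4 and 58.8 at the comma stage, a log2 rise of 5.26 (SE 0.27, adjusted p = 2.07e-06), with 3.37 (SE 0.25) in mixed sex.

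The 3 H3K9 enzymes and *mes-2* were among the 22 members called lower in N2. For H3K9, *met-2*, which adds the first methyl groups, went from 45.0, 38.9 and 50.6 FPKM in N2 early embryos to 18, 20.0 and 14.7 (log2 -1.39, SE 0.17), *set-25*, which completes trimethylation, from 33.7, 32.7 and 32.1 to 13.9, 16.4 and 11.8 (-1.27, SE 0.15), and *set-32* from 18.6, 13.6 and 22.5 to 1.92, 2.77 and 2.02. *mes-2* went from 54.3, 45.0 and 57.3 to 13.4, 13.1 and 7.69 (-2.26, SE 0.21). The groups of libraries did not overlap for any of these genes, as for 86.7% of all genes tested in N2. All 4 also fell in mixed sex (log2 -0.89, -1.0, -3.04 and -2.04).

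Of the H3K36 enzymes, *mes-4*, known for carrying the mark through the germ line, went from 106, 89.6 and 121 FPKM to 25.0, 26 and 9.79 in N2 (log2 -2.53, SE 0.32), and *met-1*, which acts with transcription, from 88.8, 85.7 and 97.7 to 34.7, 38.8 and 31.0 (-1.42, SE 0.13). *set-9* fell from 99.3, 84.3 and 104 to 29.2, 27.2 and 19.9 (-1.97, SE 0.16), whereas *set-26* was at 134, 136 and 125 and then 117, 120 and 88.0 (-0.33, SE 0.12, adjusted p = 0.0302) and did not pass the test in mixed sex. Because these 2 genes are near-identical, reads may have been divided between them unevenly and their separate levels are uncertain.

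The largest rises were of genes with few transcripts in the early embryo. *set-18*, on chromosome I, was at 0.914, 0.878 and 0.526 FPKM in N2 early embryos and at 50.0, 45.7 and 76.3 at the comma stage (log2 6.00, SE 0.33, adjusted p = 2.58e-06). *set-19* and *set-20*, both on X, rose from 7.34, 5.59 and 7.81 to 80.7, 98.4 and 93.0 (3.66, SE 0.20) and from 7.54, 5.80 and 6.75 to 58.4, 60.9 and 53.3 (3.05, SE 0.16), and *set-27* from 2.44, 2.97 and 1.55 to 25.3, 28.4 and 39.0 (3.66, SE 0.32). Over the 6 X-linked members tested, 3 rose and 2 fell in N2, with a median of 1.75 beside 1.93 over all X genes tested, of which 65.3% rose. Over the 27 autosomal members, 4 rose and 20 fell, with a median of -1.42 beside -0.03 over all autosomal genes, of which 42.9% fell.

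**Figure D2:**
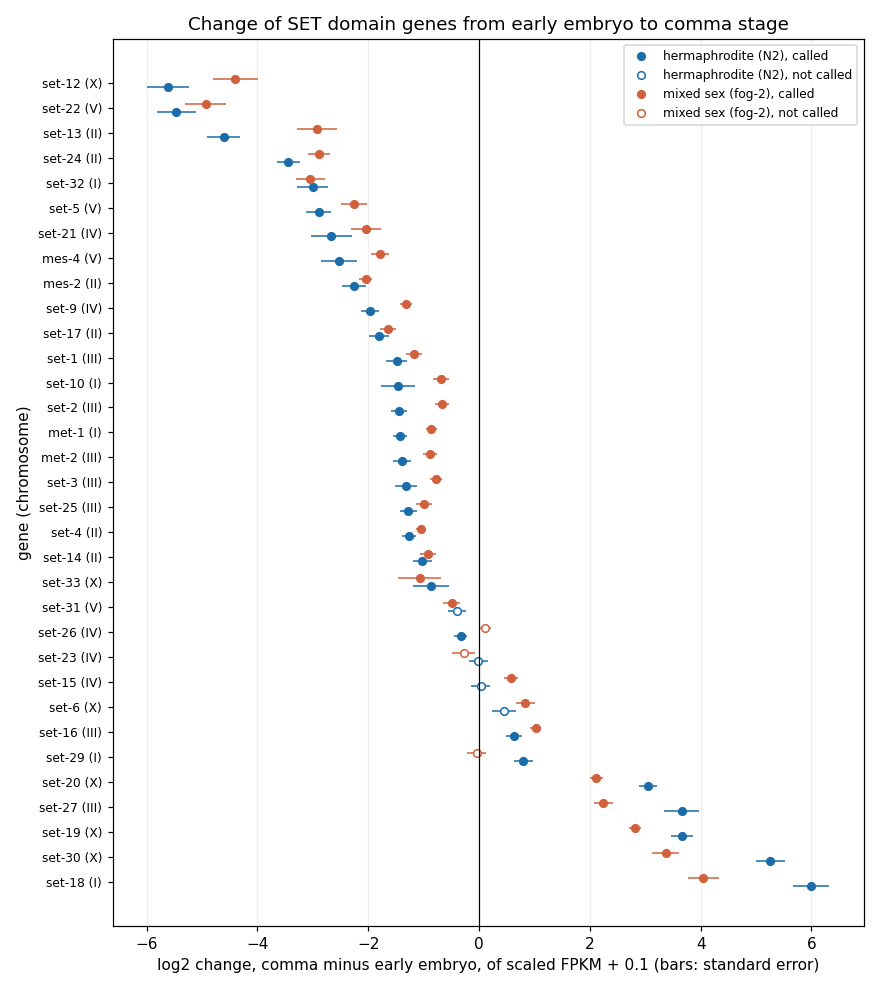
Log2 change of each tested SET domain gene from early embryo to comma stage (x axis, scaled FPKM + 0.1) in N2 (blue) and mixed sex (orange), with bars for the standard error, filled points for genes called and the chromosome in brackets. *set-12*, *set-22* and *set-13* lie at the lower end and *set-18*, *set-30*, *set-19*, *set-27* and *set-20* at the upper end in both.

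From the comma stage to L1 the members again moved mainly downward. Of 32 tested in N2, 11 fell and 1 rose, beside 24.3% and 25.5% of all genes, with a median of -0.89 against 0.03. In mixed sex 15 of 31 fell and 1 rose, beside 29.9% and 32.3%, with a median of -1.28 against 0.02. *set-1*, *set-2*, *set-4*, *set-9*, *set-16*, *set-19*, *set-20*, *set-25* and *set-26* fell in both strains, 9 of 31 members beside 22.4% of genes, and no member rose in both, beside 21.8%. The count in N2 was 7 without comma replicate 1 and 5 without comma replicate 2. Over this step 6 of 8 maternal, 3 of 10 dividing cell and 1 of 8 germ line genes were also lower in N2, and 8 of 8, 5 of 10 and 3 of 8 in mixed sex, where 2 dividing cell genes were higher, and their part was not tested.

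*set-19* and *set-20* thus showed a peak at the comma stage. *set-19* dropped in N2 to 5.35 and 7.55 FPKM in L1s (log2 -3.73, SE 0.24, adjusted p = 0.00044) and stayed at 6.61 to 7.65 in L3s, and *set-20* to 7.21 and 2.56 (-3.63, SE 0.44) and then 3.94 to 4.11. In mixed sex the same genes fell from 99.9, 94.9 and 97.5 to 8.71 and 8.74 (-3.26, SE 0.13) and from 53.7, 54.9 and 52.7 to 5.62 and 4.83 (-3.14, SE 0.18). *set-26* lost its embryonic level at this later step, from 117, 120 and 88.0 to 25.0 and 18.7 in N2 (-2.23, SE 0.21), as did *set-16*, to 25.6 and 21.7 (-1.76, SE 0.19). *set-9* fell in N2 L1s to 6.88 and 5.78 (-1.90, SE 0.26).

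*set-18* and *set-27*, which rose with them, were not called at this step in either strain: *set-18* was at 76.0 and 55.7 FPKM and *set-27* at 29.8 and 29.6 in N2 L1s. *set-30* was at 28.6 and 34.0 in N2 L1s, a fall of 0.81 on the log2 scale (SE 0.18, adjusted p = 0.0135). In mixed sex *set-15* fell from 19.5, 20.5 and 20.2 to 1.97 and 5.49 (-2.36, SE 0.41), *set-10* from 20.4, 25.1 and 17.5 to 4.83 and 3.63 (-2.07, SE 0.28) and *set-21* from 4.67, 9.89 and 5.49 to 0.707 and 2.08 (-2.08, SE 0.58). The 1 member that rose there was *set-14*, to 12.6 and 17.2 from 11.4, 10.6 and 10.8 (0.64, SE 0.21, adjusted p = 0.0408), and it was not called without scaling or without any 1 of the 3 comma libraries. The 1 member called higher in N2, *set-8*, was listed at 0.0306, 0 and 0 FPKM at the comma stage and at 1.17 and 3.01 in L1s. It was listed at 0 in both mixed sex L1 libraries and in the duplicated L1 library, so its larval signal rests on those 2 libraries.

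From L1 to L3 few members moved. In N2, 2 of 32 rose and 3 fell, beside 15.9% and 13.4% of all genes, with a median of 0.01 against 0.02, and in mixed sex 4 of 30 rose and 2 fell, beside 20.5% and 13%, with a median of -0.01 against 0.09. Without scaling the mixed sex split was 2 higher and 7 lower. *set-24* rose in both (12% of genes did), from 2.2 and 2.22 FPKM to 5.58, 5.88 and 4.43 in N2 (log2 1.44, SE 0.28, adjusted p = 0.0206) and from 0.184 and 1.57 to 3.83, 3.70 and 4.24 in mixed sex (2.84, SE 0.75). *met-1* fell in both (6.73% of genes did), from 19.8 and 17.4 to 10.5, 10.8 and 9.88 in N2 (-0.59, SE 0.16, adjusted p = 0.0471) and from 34.4 and 24.1 to 10.5, 11.8 and 11.2 in mixed sex (-1.03, SE 0.25).

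In N2 the other calls were *set-9*, up from 6.88 and 5.78 to 10.7, 11.1 and 10.1 (log2 0.98, SE 0.19), *set-6*, down from 7.88 and 7.30 to 3.16, 3.40 and 3.04 (-0.98, SE 0.25), and *set-8*, which returned to 0 in all 3 libraries. In mixed sex *set-22* rose from 0.191 and 0.851 to 4.29, 4.45 and 3.48 (3.27, SE 0.58), *set-32* from 0.444 and 1.00 to 3.34, 4.83 and 4.2 (2.73, SE 0.45), and *set-5* (1.28, SE 0.37), while *set-16* fell (-0.62, SE 0.16). Germ line marker sums rose over the same interval, from 23.7 and 28.2 to 176 to 217 FPKM in N2 and from 26 and 38.6 to 194 to 239 in mixed sex, and their part in these changes was not tested. The calls rested on single libraries. In N2 none was left without any 1 of the 3 L3 libraries, 8 were made without L1 replicate 1 and 9 without L1 replicate 2, and in mixed sex none was left without L3 replicate 2 or 3, 2 without L3 replicate 1 and 10 were made without L1 replicate 3.

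The partners of these enzymes were followed from a list of 29 genes. From early embryo to comma stage in N2, all 5 COMPASS partners fell, among them *cfp-1* from 128 to 33.5 FPKM (log2 -1.97, SE 0.17), *rbbp-5* (-1.65, SE 0.21) and *wdr-5.1* (-1.62, SE 0.14), and 4 of 5 fell in mixed sex. The shares of all genes called lower at this step were those given above, 39.3% in N2 and 38% in mixed sex. Both PRC2 partners of MES-2 fell in both strains, *mes-6* from 44.9 to 12.1 and *mes-3* from 76.9 to 34.2 in N2. Of 6 readers and cofactors of H3K9 methylation 5 fell in each strain, led in N2 by the MET-2 cofactors *arle-14* (-2.29, SE 0.13) and *lin-65* (-2.28, SE 0.16) and by the reader *lin-61* (-1.75, SE 0.22).

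Demethylases remove the same marks. Of 13 tested in N2, 10 fell and 1 rose, beside 39.3% and 45.3% of all genes, and of 13 in mixed sex 6 fell and 3 rose, beside 38% and 42.8%. *lsd-1* (-2.13, SE 0.20), *jmjd-3.2* (-2.03, SE 0.65) and *jhdm-1* (-1.93, SE 0.15) fell most in N2, and *jmjd-3.1*, an H3K27 demethylase, rose from 6.46 to 98.4 FPKM (3.90, SE 0.23). The other SET or PR domain genes on the list both rose, *blmp-1*, a PR domain transcription factor, from 1.73 to 135 (6.16, SE 0.29) and *lin-59*, an ASH1 orthologue, from 32.1 to 67.0 (1.01, SE 0.14). From comma stage to L1 in N2, 9 of 13 demethylases fell, among them *jmjd-3.1* from 98.4 to 16.6 (-2.50, SE 0.23), *lsd-1* (-2.15, SE 0.41) and *dpy-21* from 103 to 28.5 (-1.78, SE 0.17), together with 3 of 5 COMPASS partners, 2 of 6 readers, 1 of 2 PRC2 partners and *blmp-1*, beside 24.3% of all genes. In mixed sex 10 of 13, 4 of 5, 3 of 6 and 1 of 2 fell, with *blmp-1*, beside 29.9%. From L1 to L3 in N2 the calls were 1 COMPASS partner higher (*dpy-30*) and 1 lower (*cfp-1*), 2 readers lower (*hpl-2* and *lin-61*), 2 demethylases lower (*jmjd-3.2* and *utx-1*), *blmp-1* higher and *lin-59* lower, beside 15.9% of all genes higher and 13.4% lower. In mixed sex over the same interval they were *dpy-30* and *blmp-1* higher and *cfp-1*, *utx-1* and *lin-59* lower, beside 20.5% and 13%.

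Whether the family differs between the sexes was asked by setting N2 against mixed sex at each stage. The mixed sex libraries hold XX animals too, so a difference between males and hermaphrodites appears diluted in these values. In early embryos 6 of 33 members tested were higher in hermaphrodites and 6 lower, beside 6.84% and 8.73% of all genes, with a median of 0.08 against -0.000234. The higher ones were *set-12*, at 24.5, 25.6 and 24.0 FPKM in N2 and 12.1, 13.2 and 15.6 in mixed sex (log2 0.96, SE 0.17, adjusted p = 0.0112), *set-13* (0.83, SE 0.17), *set-2*, at 85.3, 80.8 and 92.7 against 58.4, 68.6 and 59.2 (0.58, SE 0.11), *met-2* (0.50, SE 0.13), *set-9* (0.45, SE 0.12) and *met-1* (0.41, SE 0.11). The lower ones were *set-30*, at 1.36, 1.95 and 0.958 against 5.43, 6.43 and 3.13 (-1.64, SE 0.38), *set-18*, at 0.914, 0.878 and 0.526 against 2.11, 2.60 and 3.34 (-1.59, SE 0.41), *set-27* (-1.31, SE 0.30), *set-19* (-0.88, SE 0.19), *set-20* (-0.77, SE 0.18) and *set-29* (-0.62, SE 0.16). No library of one group overlapped the other for any of the 12. Over all 33 members 17 did not overlap, beside 36.6% of all genes tested.

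Some marker lists separated N2 from mixed sex in the same libraries and others did not. The larval cuticle sums were 30.5 to 60.6 FPKM in N2 and 268 to 481 in mixed sex, differentiating tissue genes summed to 228 to 261 and 278 to 320, early zygotic genes to 254 to 304 and 189 to 195, and genes of dividing cells to 11394 to 12033 and 8837 to 9812, none of them overlapping. Maternal sums, at 3982 to 5947 and 4386 to 4834, and germ line sums, at 569 to 817 and 715 to 854, overlapped, and the part of these lists in the result was not tested. The calls rested on single libraries. No member was called without N2 replicate 1 or without mixed sex replicate 2, 1 without mixed sex replicate 1, 6 without N2 replicate 3 and 7 without N2 replicate 2. Without scaling the split was 3 higher and 6 lower. Of the partners, *utx-1*, an H3K27 demethylase, was higher in hermaphrodites (log2 0.51, SE 0.12) and *jmjd-3.1* (-1.0, SE 0.26) and *blmp-1* (-1.73, SE 0.28) were lower.

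At later stages no member was called. At the comma stage limma called 0 of 32, beside 0.0427% of all genes higher and 0.0256% lower, in L1s 0 of 31, beside 0% and 0%, and in L3s 0 of 30, beside 0% and 0.0157%. At an unadjusted p under 0.05 these were 3, 1 and 3 members, beside 11.5%, 7.04% and 14.8% of all genes. At the comma stage *set-30* stood at 56.4, 57.4 and 58.8 in N2 and 56.1, 48.3 and 47.7 in mixed sex, and *set-18* at 50.0, 45.7 and 76.3 and at 56.5, 33.4 and 49.8. The difference between stages was tested directly, as the signed log2 difference of hermaphrodite minus mixed sex at the comma stage less that in early embryos. It was above 0 for 6 members (6.05% of all genes) and below 0 for 2 (1.75%). The signed sex difference went from -1.59 in early embryos to 0.36 at the comma stage for *set-18* (a shift of 1.97, SE 0.46, adjusted p = 0.024), from -1.64 to 0.25 for *set-30* (1.90, SE 0.38) and from -1.31 to 0.10 for *set-27* (1.43, SE 0.38). It went from -0.77 to 0.16 for *set-20*, from -0.62 to 0.22 for *set-29* and from -0.88 to -0.05 for *set-19*, and downward from 0.58 to -0.21 for *set-2* and from 0.41 to -0.16 for *met-1*. Each of these comma stage values was nearer to 0 than the early embryo one, and none was called. Without scaling that split was 5 and 0, and single omissions gave 2 to 8 calls, 2 without mixed sex comma replicate 2, 3 without mixed sex comma replicate 3, N2 early embryo replicate 1 or mixed sex early embryo replicate 1, 4 without N2 early embryo replicate 3, mixed sex early embryo replicate 2 or N2 comma replicate 3, and 5 without N2 comma replicate 2 or mixed sex comma replicate 1, with *set-20* and *set-30* among the calls each time. Without N2 L1 replicate 1, 1 member was called in L1s. With the second N2 L3 collection in place of the first, 5 members (*mes-2*, *mes-4*, *set-9*, *set-22* and *set-24*) were lower in hermaphrodite L3s, beside 5.93% of all genes lower in that fit.

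*dpy-27(y56)* early embryos lack maternal and zygotic DPY-27. Against N2, 5 of 33 members were higher and 11 lower, beside 26.2% and 21.8% of all genes, with a median of -0.35 against -0.04. *set-18* was at 11.9, 21 and 26.7 FPKM against 0.914, 0.878 and 0.526 (log2 4.34, SE 0.40, adjusted p = 0.00023), *set-30* at 27.3, 39.8 and 24.0 against 1.36, 1.95 and 0.958 (4.2, SE 0.34), and *set-19* at 35.1, 48.9 and 45.9 against 7.34, 5.59 and 7.81 (2.48, SE 0.21). *set-27* (2.04, SE 0.32) and *set-20* (1.85, SE 0.23) were the other rises. The largest falls were *set-24*, from 25.7, 22.5 and 28.2 to 14.5, 12.5 and 9.60 (-1.21, SE 0.21), *set-25*, from 33.7, 32.7 and 32.1 to 19.6, 14.1 and 19.4 (-1.05, SE 0.17), *set-32* (-0.98, SE 0.24), *set-12* (-0.93, SE 0.22) and *set-13* (-0.88, SE 0.18).

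The 5 members that were higher are 3 on X and 2 on autosomes. Over the 6 X-linked members the median was 0.95 beside 1.00 over all X genes tested, and over the 27 autosomal members -0.37 beside -0.15. Cuticle sums of 1203 to 1867 FPKM against 30.5 to 60.6, early zygotic sums of 122 to 160 against 254 to 304 and maternal RNA-binding protein sums of 2304 to 3012 against 3982 to 5947 stood beside these changes, and their part was not tested. *set-1* was at 435, 394 and 431 against 418, 441 and 416 (log2 -0.16, SE 0.11) and *set-4* at 80.6, 68.3 and 96.7 against 93.0, 95.2 and 98.3 (-0.38, SE 0.14, adjusted p = 0.0537). Partners called were *blmp-1* (3.74, SE 0.27), *jmjd-3.1* (3.13, SE 0.25), *jmjd-3.2* (1.12, SE 0.25) and *hpl-1* (0.69, SE 0.18) higher, and 2 COMPASS partners (*dpy-30* and *wdr-5.1*), 1 PRC2 partner (*mes-6*), 2 readers (*lin-61* and *lin-65*) and 3 demethylases (*jmjd-2*, *jhdm-1* and *lsd-1*) lower, beside the same 26.2% and 21.8% of all genes. Of these, *jmjd-3.1*, *jmjd-3.2*, *hpl-1* and the lower *lsd-1* lie on X, where 54% of genes tested were called higher and 6.66% lower.

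Set against heterozygous embryos of the same strain, none of 33 members passed the limma test and 1 had an unadjusted p under 0.05 (2.7% of all genes), beside 0% of all genes called in either direction. In the 2 heterozygous libraries *set-30* was at 15 and 16.9 FPKM and *set-18* at 8.95 and 11.6, above all N2 libraries and below all *dpy-27* libraries. The paper's methods describe the choice of mothers for homozygous embryos only, so the genotypes of single embryos labelled heterozygous are not known. The heterozygous libraries differed from each other, with *set-26* at 139 and 526, *set-9* at 68.8 and 212, *set-17* at 71.6 and 20.0 and the cuticle sum at 924 and 3977. That sum includes *rol-6*, which the balancer also carries. Without heterozygous replicate 1, 4 members were called (*set-17* higher, and *set-9*, *set-16* and *set-26* lower). In L1s, *dpy-27(y56)* against N2 gave 0 of 33 calls with limma (1 at an unadjusted p under 0.05, beside 15.3% of all genes), beside calls of 0.255% higher and 0.0851% lower over all genes, with *set-30* at 62.1, 42.3 and 46.1 against 28.6 and 34.0 (log2 0.48, SE 0.21, adjusted p = 0.338). Without N2 L1 replicate 1, *set-22* was called higher and *set-8* lower.

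Knockdown of *dpy-27* by RNAi in N2 gave no call either. In mixed embryos 0 of 33 members passed the limma test and 0 had an unadjusted p under 0.05 (0.852% of all genes), beside 0% of all genes called in either direction. The 6 vector libraries spread widely, *set-1* from 214 to 531 FPKM and *set-30* from 7.40 to 71.3, and the sum over dividing cell genes from 2068 to 12706. *set-30* was at 71.1, 91.4, 28.5 and 39.7 with RNAi, overlapping the vector libraries. Same-numbered libraries deviated together (correlation 0.515 to 0.909). With the replicate number as a block, 0 of 34 members and 0% of all genes were called. Of the 6 X-linked members 5 had a higher value, with a median of 0.34 beside 0.57 over all X genes. Of those X genes 90.4% had a higher value. The 27 autosomal members had a median of -0.12 beside -0.01. In L3s, limma called 0 of 31 members, beside 0.0235% of all genes higher and 0.00782% lower, and 4 members had an unadjusted p under 0.05, beside 12.3% of all genes.

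Those 4 members, a share near that of all genes, are X-linked and none passed the adjusted test. *set-19* was at 13.2, 8.88, 11.7 and 11.6 FPKM with *dpy-27* RNAi and at 6.82, 6.26, 8.72 and 6.45 with vector (log2 0.62, SE 0.17, adjusted p = 0.219), *set-6* at 5.74, 5.91, 5.97 and 5.84 against 4.85, 3.70, 3.67 and 4.07 (0.47, SE 0.14, adjusted p = 0.248), and *set-20* at 6.99, 5.49, 4.63 and 6.65 against 4.33, 3.36, 4.26 and 4.54 (0.45, SE 0.17, adjusted p = 0.335). The libraries did not overlap for these genes, nor did they for 7.69% of all genes tested. *set-30* overlapped, at 42.2, 45.0, 33.1 and 58.8 against 35.3, 32, 32.4 and 30.8 (0.37, SE 0.16, adjusted p = 0.399). The 5 X-linked members tested had a median of 0.45 beside 0.39 over all X genes, and the 26 autosomal members a median of 0.01 beside -0.04. The difference between the L3 and the mixed embryo effect was called for 0 of 33 members by limma (0 at an unadjusted p under 0.05, beside 1.24% of all genes), beside 0% of all genes called.

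*dpy-21(e428)* removes the demethylase that produces H4K20 monomethylation on X. In L3s against the second N2 collection, 3 of 30 members were higher and none lower, beside 6.21% and 0.753% of all genes. *set-30* was at 50.4, 57.3, 59.3 and 49.5 FPKM against 29.8, 30.9, 29.2 and 28.8 (log2 0.79, SE 0.12, adjusted p = 0.0085), *set-19* at 11.3, 12.4, 11.9 and 11 against 6.27, 6.36, 6.82 and 7.92 (0.70, SE 0.17, adjusted p = 0.0448), and *set-6* at 5.48, 5.91, 5.54 and 5.08 against 3.81, 4.07, 3.77 and 2.41 (0.59, SE 0.12, adjusted p = 0.0234). All 3 lie on X and every mutant library exceeded every N2 library. Over all genes tested, the libraries of 13.2% did not overlap. *set-20*, the other X-linked member tested, was at 7.58, 6.31, 5.08 and 6.99 against 2.95, 3.50, 3.87 and 4.31 (0.74, SE 0.22), also without overlap, but with an adjusted p of 0.0821.

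X genes as a whole had similar values. The 4 X-linked members had a median of 0.72 beside 0.59 over 1926 X genes tested, of which 29.7% were called higher and 94.9% had a higher value. The 26 autosomal members gave no call in either direction and a median of -0.06, beside -0.08 over autosomal genes, of which 1.86% were called higher. Autosomal *set-18* was at 44.9, 42.4, 48.8 and 37.9 against 39.4, 67.5, 43.9 and 29.0. *set-4* was at 11.2, 10.2, 8.44 and 8.44 against 8.29, 11.2, 9.88 and 7.96 (log2 -0.03, SE 0.13) and *set-1* at 21.6, 22.0, 16.3 and 16 against 31.5, 24.7, 19.2 and 21 (-0.41, SE 0.17, adjusted p = 0.214). Among partners, *hpl-1*, a heterochromatin protein that binds methylated H3K9, rose from 9.20 to 16.8 (0.80, SE 0.12) and *jmjd-3.1* from 13.3 to 21.4 (0.61, SE 0.10). Both of these partners lie on X.

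**Figure D3:**
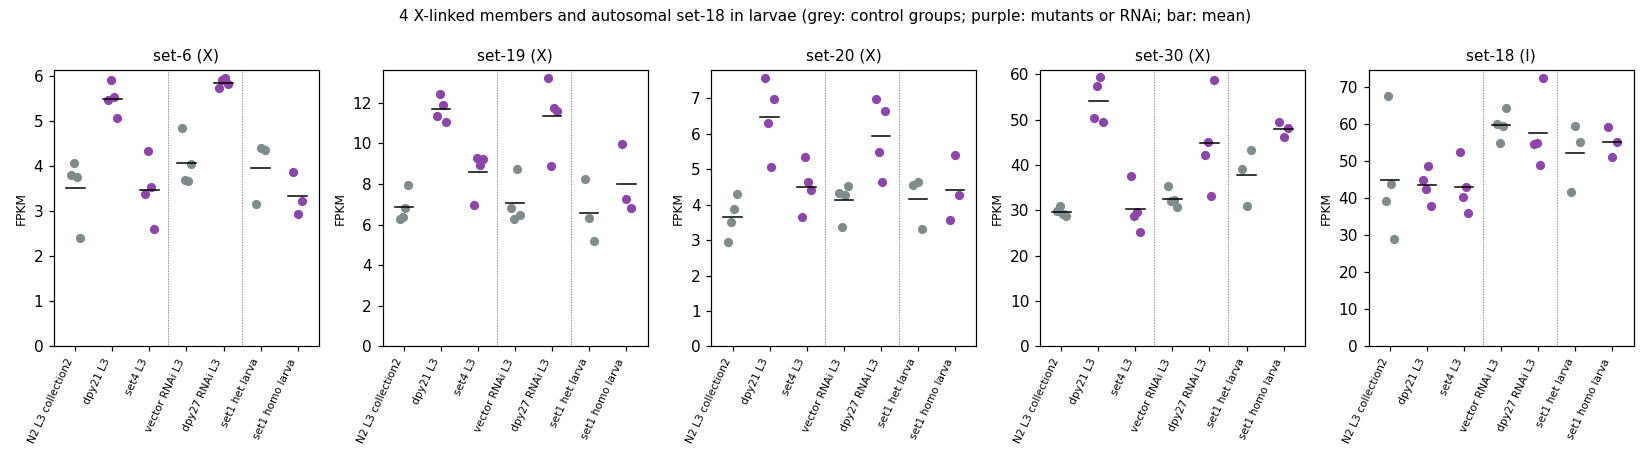
FPKM by library of the X-linked *set-6*, *set-19*, *set-20* and *set-30* and of autosomal *set-18* in larval mutant or RNAi groups (purple) and their controls (grey); bars are means and dotted lines separate experiments. For *set-30*, the 4 *dpy-21* L3 libraries lie at 49.5 to 59.3 and the 4 N2 libraries at 28.8 to 30.9, whereas *set-18* overlaps in every experiment.

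Of the 3 calls, *set-30* alone remained when any single *dpy-21* library was left out. The choice of N2 L3 collection mattered more. With the first collection as control 20 members were called, 4 higher (*set-6*, *set-19*, *set-20* and *set-30*) and 16 lower, beside 22.9% and 20.3% of all genes in that fit. The 2 collections differed among themselves: *mes-2* was at 10.8, 11.5 and 9.61 FPKM in the first and 6.87, 7.38, 6.79 and 6.40 in the second, *mes-4* at 9.24, 9.64 and 7.41 and at 6.28, 4.49, 4.00 and 4.97, and *set-24* at 5.58, 5.88 and 4.43 and at 1.94, 1.95, 2.46 and 1.73, with no overlap for any of these genes. Germ line sums were 176 to 217, 64.5 to 87.2 in the second collection and 68.6 to 91.5 in *dpy-21* L3s, and their part was not tested.

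In *dpy-21(e428)* early embryos limma called none of 33 members, beside 2.83% of all genes higher and 3.19% lower. An unadjusted p under 0.05 was found for 14 members, beside 33% of all genes. The 3 mutant libraries differed from each other. *set-26* was at 518, 260 and 146 FPKM in replicates 1 to 3 (N2 134, 136 and 125), *set-9* at 254, 141 and 114 (N2 99.3, 84.3 and 104) and *set-4* at 48.6, 42.7 and 134 (N2 93.0, 95.2 and 98.3). The cuticle sum was 88.3 in replicate 3 and 795 and 1707 in the others. Without replicate 3, 17 members were called, 11 higher (*set-9*, *set-16*, *set-18*, *set-19*, *set-20*, *set-25*, *set-26*, *set-27*, *set-29*, *set-30* and *met-1*) and 6 lower (*set-3*, *set-4*, *set-10*, *set-17*, *set-21* and *set-22*), beside 25.3% of all genes higher and 24% lower in that fit.

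With the replicate number as a block, which paired these libraries, 3 members were called, *set-20* and *set-30* higher and *set-17* lower, beside 5.76% and 5.16% of all genes in that fit. *set-30* was at 9.62, 9.49 and 3.05 FPKM against 1.36, 1.95 and 0.958 (log2 2.43, SE 0.59, adjusted p = 0.0556 without the block), *set-20* at 17.6, 12.9 and 9.98 against 7.54, 5.80 and 6.75 (1.23, SE 0.30), and *set-17* at 24.5, 24.9 and 60.3 against 88.2, 77.3 and 115 (-1.2, SE 0.32). Among partners *jmjd-1.2*, a demethylase of H3K9 and H3K27, was called, up from 60.7 to 107 (1.05, SE 0.20). The signed *dpy-21* effect (mutant minus N2, log2) differed between L3s and early embryos for 5 members. It was higher in L3s for *set-17* (-1.2 in early embryos, 0.08 in L3s, difference 1.33, SE 0.39, adjusted p = 0.0445) and *set-6* (-0.64 and 0.59, difference 1.28, SE 0.38), beside 5.28% of all genes. It was lower in L3s for *set-18* (2.22 and -0.06, difference -2.21, SE 0.67), *set-25* (0.87 and -0.16, difference -0.98, SE 0.28) and *met-1* (0.54 and -0.25, difference -0.74, SE 0.18), beside 6.09%. The difference comes from 1 fit over both stages and so need not equal that of the separate fits. Without scaling 2 were higher and 0 lower. Every single omission moved the count, to 14 without *dpy-21* embryo replicate 3, to 0 without *dpy-21* embryo replicate 2 or N2 embryo replicate 1 or 2, and to between 1 and 3 without any other library. The *dpy-27* and *dpy-21* early embryo comparisons and that of the sexes share the N2 libraries, so their values stand side by side and their likeness was not measured.

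*set-4(n4600)* lowered its own transcript. In L3s *set-4* was at 0.422, 0.895, 0 and 0.0965 FPKM against 8.29, 11.2, 9.88 and 7.96 in the second N2 collection, a log2 change of -4.88 (SE 0.62) with no overlap. Its unadjusted p was 3.8e-05 and its adjusted p 0.0955, so it was not called in the fit with a pseudocount of 0.1, and it was called with a pseudocount of 1 and against the first N2 collection. No other member passed either: limma called 0 of 30, with 2 at an unadjusted p under 0.05 (4.42% of all genes), beside 0% of all genes called higher and 0.00801% lower, and the members' median was 0.09 against 0.000121. *set-1* was at 25.9, 25.4, 17.1 and 21.4 against 31.5, 24.7, 19.2 and 21 (-0.09, SE 0.19, adjusted p = 0.966). The 4 X-linked members tested had a median of 0.16 beside 0.12 over all X genes.

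In mixed embryos no N2 group outside the RNAi experiment was analysed here, and the *set-4(n4600)* and *dpy-21(e428)* labels were set against each other. With all libraries as labelled, *set-4* differed by -4.26 on the log2 scale (SE 2.13, unadjusted p = 0.0737), limma called 0 of 34 members (0 at an unadjusted p under 0.05, beside 0.17% of all genes) and 0% of all genes in either direction. Leaving out both libraries that go against their labels, an alternative chosen after seeing the data, gave -8.02 for *set-4* (SE 0.38, adjusted p = 0.000276), the 1 member called of 34, among 2 genes higher and 2 lower over 12767 genes tested. The *dpy-21* transcript had 34.6, 31.4, 46.5 and 35.1 FPKM under the *dpy-21(e428)* label and 74.3, 36.5, 62.5 and 58.7 under the *set-4(n4600)* label.

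**Figure D4:**
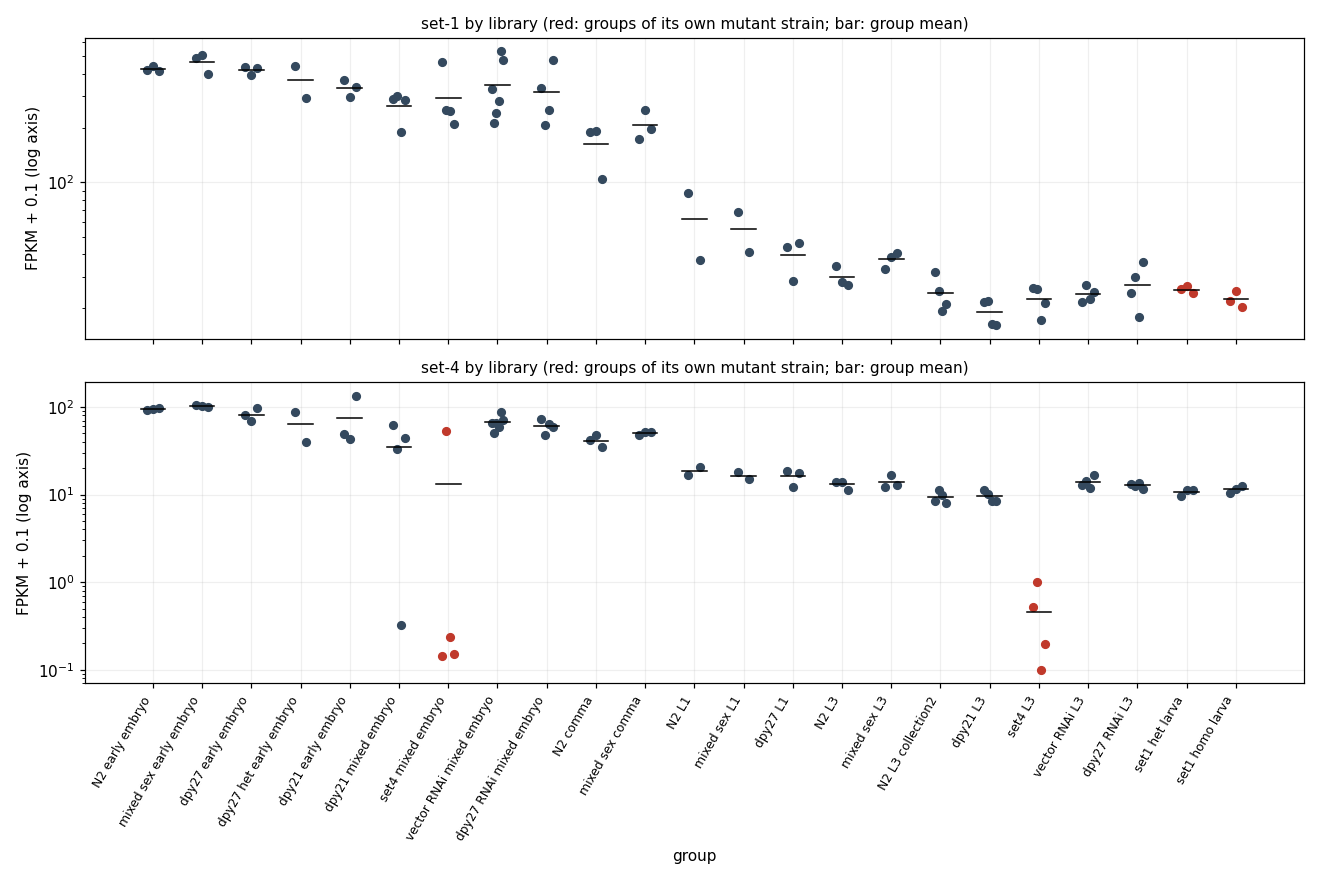
*set-1* (top) and *set-4* (bottom) in every FPKM library by group, as FPKM + 0.1 on a log axis, with bars at group means and red points for groups of the gene's own mutant strain. *set-4* is at 7.96 FPKM or more in all libraries except those of the *set-4* L3 group, 3 of the 4 labelled *set-4* mixed embryo and the library labelled *dpy-21* mixed embryo replicate 3, and *set-1* has no such low group.

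Homozygous *set-1(tm1821)* larvae were compared with heterozygous ones, which carry the same allele over a balancer. The labels call these larvae L2 and the deposited columns L3, and the columns taken as heterozygous carry no genotype word, so this contrast rests on the match of their names to the sample titles. *set-1* was at 21.8, 24.9 and 20.3 FPKM in homozygotes and 25.5, 26.4 and 24.2 in heterozygotes (log2 -0.13, SE 0.12, adjusted p = 0.631), with overlapping libraries, and an FPKM over the whole gene does not check an allele that still gives transcript. *set-4* was at 10.3, 11.4 and 12.4 against 9.65, 11.2 and 11.1 (0.15, SE 0.14).

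limma called 0 of 31 members, beside 0.00778% of all genes higher and 0.00778% lower. An unadjusted p under 0.05 was found for 5 members, beside 16.7% of all genes, so their share was near the background. Of these 5, *set-16* was at 15.9, 13.6 and 17.2 against 10.1, 9.51 and 9.75 (log2 0.71, SE 0.14, adjusted p = 0.122), *set-25* at 3.26, 3.83 and 4.5 against 2.93, 2.22 and 2.06 (0.72, SE 0.23), and *set-30* at 49.5, 46.2 and 48.0 against 39.1, 30.9 and 43.3 (0.41, SE 0.17). *set-31*, at 3.79, 3.04 and 4.42 against 5.77, 5.18 and 7.06, and *set-10*, at 2.30, 2.54 and 2.72 against 3.33, 3.74 and 3.80, had lower values. None of the 5 passed the adjusted test. The 5 X-linked members had a median of 0.13 beside 0.31 over all X genes tested.

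In the L1 libraries with a *C. briggsae* spike-in, read counts were scaled to the spike-in worms, so a change in the animals' total mRNA shows as a change of all genes. *C. elegans* counts were 1533531 to 3215078 a library and *C. briggsae* counts 129184 to 331898, with 10.7 to 11.9 *C. elegans* counts per *C. briggsae* count in N2 and 9.44 to 11.3 in *set-4(n4600)*. *set-4* had 43, 59 and 72 counts in N2 and 1, 1 and 1 in the mutant. That is 1.12% of the N2 level after scaling (exact 95% interval 0.228% to 3.32%, for counting error only), a fitted log2 change of -6.34 (edgeR quasi-likelihood test, adjusted p = 2.63e-08).

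Of 27 members with a mean of at least 10 counts, 8 were lower and 1 higher in *set-4(n4600)*, beside 20.8% and 5.47% of all genes, and the median was -0.40 against -0.24. *set-18* was the 1 rise, from 221, 330 and 431 counts to 737, 939 and 921 (log2 0.74, edgeR adjusted p = 0.00362). After *set-4*, the falls were *set-15* (-1.14, edgeR adjusted p = 0.0402), *set-31*, from 17, 24 and 50 to 27, 19 and 23 (-0.95, edgeR adjusted p = 0.0421), *set-25* (-0.92), *set-17* (-0.72), *mes-2* (-0.64), *set-2* (-0.54, edgeR adjusted p = 0.027) and *met-2* (-0.47). The scaled libraries overlapped for *set-15* and *mes-2* and did not for the others.

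The falls depended on the spike-in. Scaled to the *C. elegans* counts instead (TMM), the members' changes lay higher, with a median of -0.18 against -0.02, and the calls were *set-4* lower and *set-18* and *set-6* higher. *set-6*, at 34, 40 and 63 counts against 96, 110 and 111, had a log2 change of 0.57 with the spike-in scaling (edgeR adjusted p = 0.0592). *set-4* and *set-18* were called in every setting and in every omission of a library. Without *set-4* replicate 2 or without replicate 3 they were the only members called, and DESeq2 on the spike-in size factors called *set-2* besides.

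**Figure D5:**
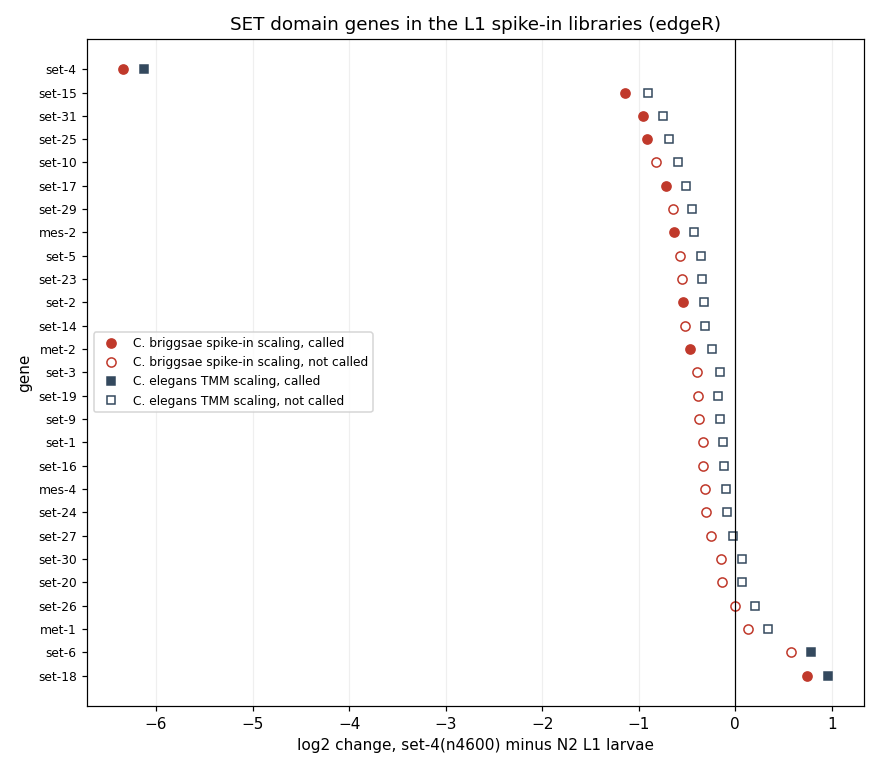
Log2 change of each tested SET domain gene in *set-4(n4600)* against N2 L1 libraries (x axis, edgeR), scaled to *C. briggsae* spike-in counts (red circles) or to *C. elegans* counts (dark squares), with filled symbols for genes called. The squares lie to the right of the circles, and *set-4* at -6.34 and *set-18* at 0.74 are filled in both.

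*set-1* had 63, 73 and 163 counts in N2 and 99, 124 and 134 in *set-4(n4600)* (log2 -0.34, edgeR adjusted p = 0.199). Of the partners, 2 of 5 from COMPASS (*cfp-1*, -1.05, and *rbbp-5*, -0.65), 3 of 6 readers (*lin-61*, *lin-65* and *arle-14*) and 2 of 12 demethylases (*spr-5* and *jhdm-1*) were lower with the spike-in scaling and none was higher. Over all genes tested in this fit, 20.8% were lower and 5.47% higher. Genes of dividing cells moved in the same direction, with 7 of 10 lower and none higher, as did 2 of 5 germ line genes and the 1 larval cuticle gene tested. Of 5 genes of differentiating tissue, the muscle myosin genes *unc-54* (0.76, edgeR adjusted p = 0.0019) and *myo-3* (0.84, edgeR adjusted p = 0.00095) were higher, as *set-18* was, and none was lower. The part of these lists in the result was not tested.

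Low values kept some members out of part of the comparisons, although *set-12*, *set-13* and *set-22* were well above the filter in early embryos. *set-28* (X) passed the filter in no comparison, its highest value in any library being 1.75 FPKM. *set-11* was tested in 2 comparisons and *set-8* in 4, *set-12* and *set-13* in 9 each, *set-33* in 15 and *set-22* in 19 of the 23. In the spike-in counts *set-33* was at 0 in all 6 libraries, and *set-8*, *set-11*, *set-12*, *set-13*, *set-21*, *set-22*, *set-28* and *set-32* were also under the mean of 10 counts.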

How the data were processed

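Strand-specific single-end mRNA-seq of staged worm populations was taken as deposited. The authors mapped reads to *C. elegans* WS220 and deposited FPKM per gene (CASAVA 1.8, TopHat2 2.0.11 and Cufflinks 2.2.0 are named in the submitters' processing notes). For the spike-in L1 libraries they deposited raw counts per *C. elegans* and *C. briggsae* gene (HTSeq 0.6.0). Of the deposited *C. briggsae* counts, 24.5% to 26.9% per library were on lines that name no gene, and these lines stayed out of every total. There were 13 FPKM columns that match no sample label and were not used, and 61 ChIP-seq samples of the 146 in the series were not used here.

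FPKM were scaled by median-of-ratios factors, transformed to log2(FPKM + 0.1), which understates the change of low genes, and compared with limma 3.58.1 (R 4.3.3) between the libraries of the 2 groups concerned only, over genes whose mean of group means exceeded 1 FPKM. Spike-in counts were compared with edgeR 4.0.16 (quasi-likelihood), with library sizes from TMM over *C. briggsae* counts and a minimum mean of 10 counts, and with DESeq2 1.42.0 as an alternative. P-values were adjusted by Benjamini-Hochberg over all genes tested and called under 0.05. Fits were tested on simulated data. Libraries are labelled as replicates, and the paper states that collections were pooled into each biological replicate. The p-values set the difference between groups against the spread between libraries.

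Genes named with values were *set-1* and *set-4* throughout, those with an assigned role in the account of stages, up to 5 rises and 5 falls per comparison among members called without overlap, up to 3 called partners per list, and, chosen after their values were seen, members that lay near a threshold or completed a count. The members, the partner list (29 genes, all matched) and the marker lists were chosen with earlier results of these data known. Alternatives were another pseudocount (1), no low-value filter, no scaling, single omissions, the other N2 L3 collection, other count scalings and the replicate number as a block. Leaving out both mixed embryo libraries that go against their labels was added after the data were seen. Same-numbered libraries deviated together, by the correlation of their deviations from the group means, in the RNAi mixed embryos (0.515 to 0.909), RNAi L3s (0.137 to 0.635), *dpy-21* early embryos (0.166 to 0.218), *set-4* L3s (0.267 to 0.697) and *set-1* larvae (0.105 to 0.388). These comparisons are called paired in this report, although no label states a pairing. *dpy-27* against heterozygous embryos gave 0.195 over 2 pairs and was not counted among them. Chromosomes came from RefSeq (WBcel235, 19904 genes matched); no coordinates or sequences are given.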

Additional observations from a re-analysis of the deposited data

Results flagged for a closer look

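Over 288 gene and group combinations of 4 to 6 libraries, 20 had a highest or lowest library that lay far from the others by Dixon's test, where chance gives about 1 in 20. *set-4* at 52.6 FPKM in the library labelled *set-4(n4600)* mixed embryo replicate 2 was one of these. In the same experiment *set-1* was lowest, at 190 FPKM, in the library labelled *dpy-21(e428)* replicate 3 and highest, at 466, in the library labelled *set-4(n4600)* replicate 1.

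The vector control of mixed embryos held 5 of the remaining ones. Replicate 5 was highest for *set-17* (61.6 FPKM) and *set-32* (19.3) and lowest for *set-19* (14.5), and replicate 3 was highest for *met-2* (84.9) and *set-15* (28.6). With *dpy-27* RNAi, replicate 3 of the mixed embryos was highest for *set-15* (21.3), and replicate 4 of the L3s was highest for *set-16* (18.6) and lowest for *set-3* (5.11). Vector L3 replicate 1 was highest for *set-31* (5.64).

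In *set-4(n4600)* L3s, replicate 1 was lowest for *set-19* (6.97) and *set-25* (2.83) and highest for *set-22* (2.93), and replicate 4 was lowest for *set-17* (7.45) and *set-3* (4.19). *dpy-21(e428)* L3 replicate 1 was highest for *met-2* (9.67) and replicate 2 lowest for *set-17* (8.77), and replicate 4 of the second N2 L3 collection was lowest for *met-2* (5.75).

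Tested differences between stages stood out for 13 effects. The signed log2 difference of hermaphrodite minus mixed sex, at the comma stage less that in early embryos, was 1.97 for *set-18*, 1.90 for *set-30*, 1.43 for *set-27*, 0.94 for *set-20*, 0.85 for both *set-19* and *set-29*, -0.77 for *set-2* and -0.55 for *met-1*. The signed *dpy-21(e428)* change in L3s less that in early embryos was 1.33 for *set-17*, 1.28 for *set-6*, -0.74 for *met-1*, -0.98 for *set-25* and -2.21 for *set-18*.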

How the results depend on the processing

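Among single genes, 737 values under alternatives kept their direction and their side of the threshold, 269 kept their direction without passing it, and none reversed. These values are of genes already called in the main fit. In comparisons of 2 groups they were also chosen for libraries without overlap, apart from *set-1* and *set-4*. A reversal was thus unlikely from the start, and its absence does not measure stability. Among counts of members called, 208 stayed within 1.5 times and 71 did not. With no filter on low values the count was 3 of 5 from L1 to L3 in N2, 4 of 12 for the sexes in early embryos, 1 of 3 for *dpy-21* L3s, 4 of 8 for the stage difference of the sexes and 2 of 5 for that of *dpy-21*. Without scaling it was 3 (main 0) for *dpy-21* early embryos, 5 for the stage difference of the sexes and 2 for that of *dpy-21*. Scaling shifted the median of all genes by -0.28 (stage difference of *dpy-21*) to 0.32 (mixed sex L1 to L3), and by 0.24 in N2 from L1 to L3, 0.21 in mixed sex from comma to L1, 0.27 in *dpy-21* early embryos, and -0.14, -0.26 and -0.18 for *dpy-27* against N2 early embryos, heterozygotes and N2 L1s. A pseudocount of 1 gave 1 call (*set-4* itself) in *set-4* L3s, against 0. The other N2 L3 collection gave 1 from L1 to L3, 5 for the sexes in L3s, 20 for *dpy-21* L3s and 1 for *set-4* L3s. Without both mixed embryo libraries that go against their labels 1 was called. For the spike-in counts (main 9), *C. elegans* TMM, DESeq2 size factors over *C. elegans* and DESeq2 with *C. briggsae* size factors each gave 3. The cause of these shifts was not tested.

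With the replicate number as a block, the paired comparisons kept a count of 0 except *dpy-21* early embryos (3, against 0). Among comparisons that share only a number, the block gave 0 from L1 to L3 in N2 and in mixed sex (main 5 and 6), 1 for *dpy-21* L3s and 5 for the spike-in counts, whose same-numbered libraries correlated by 0.0208 to 0.0835, and the other counts stayed within 1.5 times. No paired analysis was possible for the sexes in L1s because their libraries share only 1 number.

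Leaving out 1 library at a time gave 27 to 29 calls from early embryo to comma stage in N2 and 28 to 31 in mixed sex, 5 to 16 and 13 to 20 from comma stage to L1, and 0 to 9 and 0 to 10 from L1 to L3. For the sexes it gave 0 to 11 in early embryos and 0 to 1 in L1s. For *dpy-27* it gave 13 to 16 against N2 early embryos, 0 to 4 against heterozygotes and 0 to 2 in L1s, and for *dpy-21* 0 to 17 in early embryos and 1 to 4 in L3s. The stage differences ranged from 2 to 8 for the sexes and 0 to 14 for *dpy-21*, and the spike-in count from 2 to 9. Groups of 2 libraries left 1 after an omission, which was taken to vary like the other group. FPKM give no depth, so what depth limits is known only for the spike-in counts, where members under a mean of 10 counts were not tested.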
